A study of Mus musculus with 2 samples.

Results

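Immediate early genes of the AP-1, Egr, Atf and Nr4a families were followed across cell types of the fetal mouse lung: Jun, Junb, Jund, Fos, Fosb, Fosl2, Egr1, Atf3, Nr4a1 and Nr4a3. They were 10 of the 32285 gene features counted in each library. The group was selected on measured values, because Jun and Nr4a3 had differed between the libraries in opposite directions in different cell types, so its levels and ratios are given as a description and without a test. The data were single-nucleus RNA and chromatin accessibility (10x Multiome, which reads both from the same nucleus) of wild-type fetal lungs on gestation day 18. Mothers of the OVA group were sensitized to ovalbumin, an egg protein used as an allergen, with alum and then received 500 µg of it intranasally at each dose from gestation day 4 to day 17. Mothers of the PBS group were given alum at sensitization and buffer by the nose, so alum was shared by both groups. Lungs of 9 fetuses (PBS) or 8 fetuses (OVA) were pooled, per the study from 1 dam each, and each pool gave 1 library. Every value below therefore compares these libraries and not the conditions, and the intervals cover counting error only.

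Immediate early genes are transcribed within minutes of a stimulus, without a need for new protein, and their RNAs are short-lived. Jun and Fos proteins pair through leucine zippers to form AP-1, a factor that binds regulatory DNA, and Egr1, Atf3 and the orphan nuclear receptors Nr4a1 and Nr4a3 are induced in the same first wave. In lymphocytes Nr4a genes are known as rapid targets of antigen receptor and calcium signals, and in lung tissue many of these genes are known to respond to growth factors, stretch and cell dissociation. Tissue of both libraries had been digested with enzymes for 2 steps of 20 minutes at 37 °C before sorting, so no undigested tissue was measured here.

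Cell types were gated by markers that hold none of the 10 genes: a nucleus joined a type when at least 3 of its 8 markers had a unique molecular identifier (UMI, one counted RNA molecule) and led every other type by at least 2. The gate took 1597 of 4572 nuclei kept in the PBS library and 2427 of 5246 in the OVA library. There were 6 types with at least 50 nuclei in both libraries: group 2 innate lymphoid cells (ILC2; 318 PBS and 513 OVA nuclei), macrophages (139 and 271), alveolar type 2 cells (AT2; 457 and 317), alveolar type 1 cells (AT1; 190 and 277), fibroblasts (264 and 638) and pericytes (63 and 95). The sort had taken ILC2s, CD45+ cells and EpCAM+ cells, so the fibroblast- and pericyte-gated nuclei were outside its stated gates. Genes the gate did not use followed the labels in part. Ptprc, which encodes CD45, was at 692 (PBS) and 781 (OVA) CPM (UMIs per 1000000 UMIs of nuclear genes) in ILC2-gated nuclei and at 67.4 and 32.9 in AT2-gated nuclei. The collagen gene Col3a1 was at 1037 and 1228 in fibroblast-gated nuclei. It was also found in ILC2-gated nuclei (212 PBS, 135 OVA), at 20.5% and 11.0% of the fibroblast level. Epcam, which encodes EpCAM, was at 141 and 149 in AT2-gated and 87.9 and 153 in AT1-gated nuclei. Col3a1 was at 109 and 63 in AT2-gated and 120 and 49.9 in AT1-gated nuclei, above Epcam in AT1-gated nuclei of the PBS library.

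The libraries were unequal in quality. The PBS library held 11473351 gene UMIs in 8019 barcodes and the OVA library 13774959 in 5960, with medians of 690 and 1265 nuclear-gene UMIs per kept nucleus. Mitochondrial genes took 36.9% (PBS) and 27.6% (OVA) of UMIs in kept nuclei, and levels were therefore set per UMI of nuclear genes. The libraries shared 54 barcodes by sequence, 32 of them among kept nuclei.

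The bases just before the starts of Jun, Fos and Nr4a3, the genes whose values lead the sections that follow, show which short response elements lie there. They are printed 5′ to 3′ from RefSeq on GRCm38 (mm10), in lower case, with AP-1-type, cyclic AMP response element and TATA letters in capitals. Positions count back from the RefSeq start at -1.
Jun, chr4:95052223-95052472, minus strand: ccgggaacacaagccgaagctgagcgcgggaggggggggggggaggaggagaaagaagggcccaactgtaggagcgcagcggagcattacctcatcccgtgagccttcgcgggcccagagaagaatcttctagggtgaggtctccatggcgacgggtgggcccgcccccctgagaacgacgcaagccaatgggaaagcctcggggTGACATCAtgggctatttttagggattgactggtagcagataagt
Fos, chr12:85473640-85473889, plus strand: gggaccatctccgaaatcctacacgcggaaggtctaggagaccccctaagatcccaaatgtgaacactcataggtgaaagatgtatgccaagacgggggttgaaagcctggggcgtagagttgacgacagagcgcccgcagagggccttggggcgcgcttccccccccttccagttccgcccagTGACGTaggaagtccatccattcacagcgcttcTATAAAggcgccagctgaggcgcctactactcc
Nr4a3, chr4:48045055-48045152, plus strand, the part before its annotated exon: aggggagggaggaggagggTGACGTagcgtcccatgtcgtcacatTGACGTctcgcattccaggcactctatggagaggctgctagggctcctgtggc

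Jun held TGACATCA, the variant AP-1 site its own product is known to bind, at -45 to -38. This word occurred in the same 250 bases of 3.02% of 27025 promoters and in no other of the 9 listed genes that had a promoter sequence. Fos held TGACGT, the core of the cyclic AMP response element, at -66 to -61 and TATAAA at -33 to -28. TGACGT lay in 6.56% of all promoters and in those of Fos, Atf3 and Nr4a3, and the Nr4a3 window held it at 3 places (-231 to -226, -205 to -200 and -147 to -142, the last within an exon). TATAAA lay in 13% of promoters and, of the listed genes, in Fos alone. The words TGACGTCA (1.62% of promoters), TGACTCA with its reverse TGAGTCA (4.43%), AAAGGTCA, the monomer site of Nr4a receptors (1.31%), and the CArG box of serum response factor (1.40%) were in none of the 9 windows. Both strands were searched, TGACGT lies inside TGACGTCA, and the words TGACATCA and TGACGT were added after the sequences were seen. These are matches of letters within 250 bases and say nothing of sites elsewhere.

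Among the Jun genes, the level of Jun set stroma and epithelium apart from immune nuclei. Jun, the main DNA-binding partner of AP-1, was highest in pericyte-gated nuclei (954 CPM in PBS and 930 in OVA) and fibroblast-gated nuclei (901 and 833). These stromal types could not be told apart by counting error in either library. AT2-gated nuclei followed at 576 and 701 and AT1-gated nuclei at 482 and 444. Macrophage-gated nuclei were lowest at 144 and 128, in OVA not told apart from ILC2-gated nuclei at 170. The span over types was 6.65-fold in PBS and 7.29-fold in OVA.
Between the libraries the ratio of Jun was farthest from equality in ILC2-gated nuclei, where 80 UMIs gave 315 CPM in PBS and 110 UMIs gave 170 in OVA. The OVA level was 1.85-fold lower, a log2 ratio of -0.89 (95% counting interval -1.31 to -0.45). In AT2-gated nuclei Jun was higher in OVA instead, with 376 UMIs in PBS and 512 in OVA and a log2 ratio of 0.28 (0.09 to 0.48). The ratio was therefore 1.17 log2 units lower in ILC2-gated than in AT2-gated nuclei, with a counting interval of -1.64 to -0.70. At an equal depth of 500 UMIs per nucleus that difference was -0.78 and its interval included 0 (-1.69 to 0.14). The ratio in AT2-gated nuclei depended on the nuclei counted: it was -0.17 (-0.58 to 0.23) at that equal depth and 0.02 (-0.26 to 0.30) among nuclei with 20 to 40% mitochondrial UMIs. In the other 4 types the interval included equality, with ratios from -0.17 in macrophage-gated to -0.04 in pericyte-gated nuclei. With a gate of 2 markers the macrophage ratio was -0.52 (-0.92 to -0.11). Jun lies on chromosome 4 (95049034 to 95052222, GRCm38, minus strand) and is a single exon of 3.19 kb.

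Junb, a partner that is abundant in lymphocytes and is known to take part in the type 2 cytokine programme, had another order of types. In the PBS library it was highest in ILC2-gated nuclei, at 1448 CPM against 1052 in fibroblast-gated nuclei. In the OVA library those levels were 1097 and 1140, which could not be told apart. The log2 ratio in ILC2-gated nuclei was -0.40 (-0.58 to -0.22), from 368 and 708 UMIs, and it was 0.20 (-0.48 to 0.97) among nuclei with at most 20% mitochondrial UMIs. With all gene UMIs in the denominator it was -0.17 (-0.35 to 0.02), and against genes of similar body length -0.18 (-0.365 to 0.004). Pericyte-gated nuclei went the other way, from 644 to 960 CPM, but on 52 PBS UMIs (log2 ratio 0.58, 0.13 to 1.05).
Jund, a partner that many cells make without a stimulus, was lower in OVA in every type, with log2 ratios from -0.75 to -0.25. Its interval lay below 0 in 5 of 6 types, and macrophage-gated nuclei were the exception (23 and 37 UMIs, interval -1.54 to 0.07). Among nuclei with at most 20% mitochondrial UMIs the ratio in AT2-gated nuclei was 0.24 (-0.19 to 0.69). With all gene UMIs in the denominator the intervals included 0 in ILC2-gated (-0.23, -0.57 to 0.12) and AT2-gated nuclei (-0.02, -0.23 to 0.20), and at equal depth the ILC2 ratio was -0.09 (-0.71 to 0.56). Set against genes of similar body length, the intervals in ILC2-gated (-0.24) and AT2-gated nuclei (-0.09) also included 0. Macrophage-gated nuclei also held the least Jund, at 132 (PBS) and 78.7 (OVA) CPM. The other 5 types spread only from 441 to 649 in PBS and from 321 to 505 in OVA, and no neighbours in that order could be told apart.

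**Figure D1:**
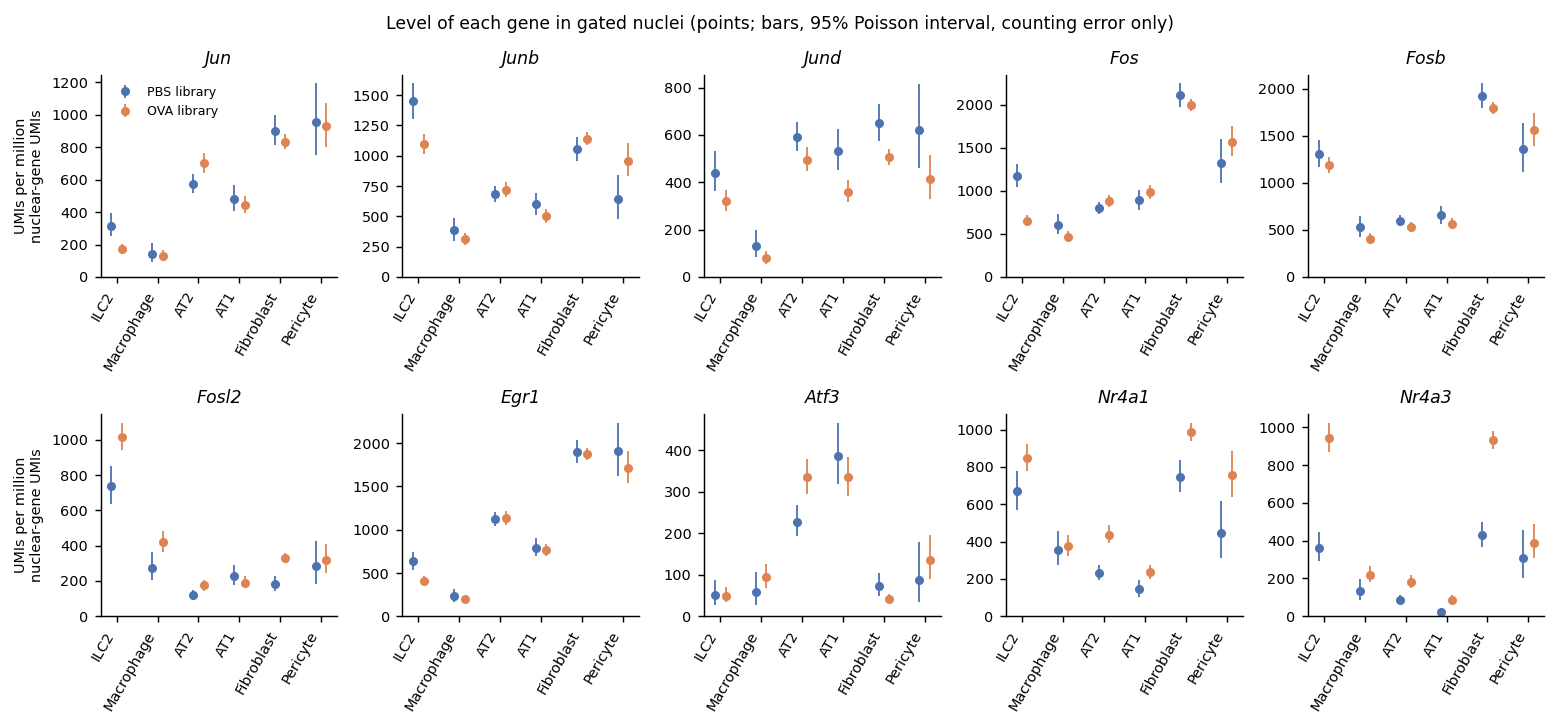
Level of each of the 10 genes (y axis, CPM of nuclear-gene UMIs) in 6 gated cell types (x axis) in the PBS and OVA libraries; points are the summed level of a library and bars its 95% Poisson interval. Fos, Fosb and Egr1 peak in the stromal types, Fosl2 in ILC2-gated nuclei and Atf3 in both alveolar types, and the OVA points of Nr4a3 lie above the PBS points in all 6 types.

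Fos and Fosb, the Fos proteins with a strong activating domain, were highest in fibroblast-gated nuclei. Fos stood at 2116 (PBS) and 1999 (OVA) CPM in fibroblast-gated nuclei, above pericyte-gated nuclei at 1326 and 1571. Fosb stood at 1929 and 1797 in fibroblast-gated nuclei, again above the 1363 and 1566 of pericyte-gated nuclei. Both were lowest in macrophage-gated nuclei, Fos at 609 and 466 and Fosb at 528 and 406, although Fosb in PBS could not be told apart there from AT2-gated nuclei.
In ILC2-gated nuclei the libraries differed for Fos and not clearly for Fosb. Fos gave 298 UMIs in PBS and 423 in OVA, or 1172 and 655 CPM, a log2 ratio of -0.84 (-1.06 to -0.62). This moved ILC2-gated nuclei from place 3 among 6 types in PBS to place 5 in OVA. Fosb gave 333 and 767 UMIs, or 1310 and 1188 CPM, and its interval included equality (-0.33 to 0.05). In fibroblast-gated nuclei, where both genes had the most counts, the ratios were close to equality at -0.08 (-0.19 to 0.03) for Fos and -0.10 (-0.22 to 0.01) for Fosb.

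Fosl2, which encodes Fra-2, a Fos protein without the strong activating domain, was led by ILC2-gated nuclei. It was at 740 CPM there in PBS and 1016 in OVA, while the next type reached 285 (pericyte-gated) in PBS and 419 (macrophage-gated) in OVA. AT2-gated nuclei were lowest, at 119 and 175, in OVA not told apart from AT1-gated nuclei at 191, and the span over types was 6.19-fold and 5.80-fold. Its OVA level was higher in ILC2-gated nuclei (log2 ratio 0.46, 0.22 to 0.70, from 188 and 656 UMIs). The ratio was 0.60 (0.14 to 1.09) in macrophage-gated, 0.55 (0.14 to 0.98) in AT2-gated and 0.85 (0.50 to 1.22) in fibroblast-gated nuclei. The AT2 ratio was 0.04 (-0.78 to 0.84) at equal depth, 0.09 as a mean over nuclei and 0.28 (-0.24 to 0.82) without the deepest 5% of nuclei, and the macrophage interval included 0 with a gate of 4 markers (0.38, -0.25 to 1.05). In AT1-gated nuclei it was -0.26 and in pericyte-gated nuclei 0.17, with intervals that included 0. In ILC2-gated nuclei Fos and Fosl2 thus lay on opposite sides of equality.

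Egr1, a zinc finger factor switched on by growth factor signalling through the MAP kinase ERK, followed the order of Jun. It was at 1909 (PBS) and 1716 (OVA) CPM in pericyte-gated and 1902 and 1874 in fibroblast-gated nuclei, which could not be told apart. AT2-gated nuclei held 1121 and 1134, AT1-gated nuclei 791 and 761 and ILC2-gated nuclei 633 and 407. Macrophage-gated nuclei held 236 and 194, a span of 8.10-fold and 9.68-fold. ILC2-gated nuclei were the one type with an interval below 0: 161 and 263 UMIs gave a log2 ratio of -0.64 (-0.93 to -0.35). When the fibroblast level scaled by Col3a1 was subtracted in each library, this ILC2 ratio was -0.27, outside that interval. The macrophage ratio of -0.28 (-0.83 to 0.29) depended on the gate. It was -0.61 (-0.94 to -0.27) with a gate of 2 markers and 0.96 (0.008 to 2.05) with a gate of 4. In fibroblast-gated nuclei 783 and 2892 UMIs gave -0.02 (-0.14 to 0.09).

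Atf3, a stress-induced factor of the ATF family that can repress its targets, was highest in the alveolar types. AT1-gated nuclei held 387 (PBS) and 335 (OVA) CPM and AT2-gated nuclei 228 and 335. The AT1 level was above the AT2 level in PBS, and in OVA they could not be told apart. ILC2-gated nuclei had 13 UMIs in PBS and 32 in OVA, or 51.1 and 49.6 CPM. The log2 ratio was 0.56 (0.26 to 0.86) in AT2-gated nuclei and -0.79 (-1.44 to -0.12) in fibroblast-gated nuclei, where 30 and 65 UMIs were counted. The sum over a type can rest on few nuclei: of 245 OVA UMIs in AT2-gated nuclei 20 came from 1 nucleus.

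Nr4a1 and Nr4a3, receptors that work without a known ligand and mark recent signalling in lymphocytes, were highest in fibroblast- and ILC2-gated nuclei. Nr4a1 was at 748 (PBS) and 987 (OVA) CPM in fibroblast-gated and 669 and 850 in ILC2-gated nuclei, which were told apart in OVA only. Nr4a3 was at 428 and 930 in fibroblast-gated and 362 and 942 in ILC2-gated nuclei, and for Nr4a3 these types could not be told apart in either library. Pericyte-gated nuclei held Nr4a1 at 446 and 755 and Nr4a3 at 310 and 390. They could not be told apart from ILC2-gated nuclei for Nr4a1 in OVA and for Nr4a3 in PBS. AT1-gated nuclei were lowest for both genes, with Nr4a3 at 21.1 (6 UMIs) and 83.7 (52 UMIs). The span of Nr4a3 over types was 20.3-fold in PBS and 11.3-fold in OVA.
Nr4a3 was higher in OVA in all 6 types, and its interval lay above 0 in 5 of them, but with a gate of 4 markers the ratio in macrophage-gated nuclei was -0.08 (-0.91 to 0.80). The macrophage interval also included 0 with a gate of 2 markers (0.35, -0.03 to 0.73) and a joint filter on both readouts (0.61, -0.07 to 1.35). Against genes of similar body length it did too (0.47, -0.19 to 1.19). At equal depth it stayed above 0 (1.31, 0.12 to 2.72). In ILC2-gated nuclei 92 UMIs in PBS and 608 in OVA gave a log2 ratio of 1.38 (1.06 to 1.71), a 2.60-fold higher level. In AT2-gated nuclei 57 and 133 UMIs, or 87.3 and 182 CPM, gave 1.06 (0.60 to 1.54), but 0.10 (-0.64 to 0.91) among nuclei with at most 20% mitochondrial UMIs. Fibroblast-gated nuclei gave 1.12 (0.90 to 1.36) from 176 and 1436 UMIs.
AT1-gated nuclei gave 1.99 (0.77 to 3.50), macrophage-gated nuclei 0.73 (0.07 to 1.45) and pericyte-gated nuclei 0.33 (-0.33 to 1.05). The AT1 value rested on 6 PBS and 52 OVA UMIs, and 12 of the OVA UMIs came from 1 nucleus. The ratio in AT2-gated nuclei was 0.32 log2 units below that in ILC2-gated nuclei, and this difference had an interval of -0.89 to 0.25. Nr4a1 was higher in OVA with an interval above 0 in 5 of 6 types, from 0.35 (0.10 to 0.60) in ILC2-gated to 0.91 (0.63 to 1.20) in AT2-gated nuclei, and its macrophage ratio was 0.07 (-0.35 to 0.51). Among nuclei with at most 20% mitochondrial UMIs the ratio of Nr4a1 in ILC2-gated nuclei was -0.12. Nr4a3 spans 41.3 kb of chromosome 4 (48045153 to 48086447, plus strand), of which 14.5% is exon.

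**Figure D2:**
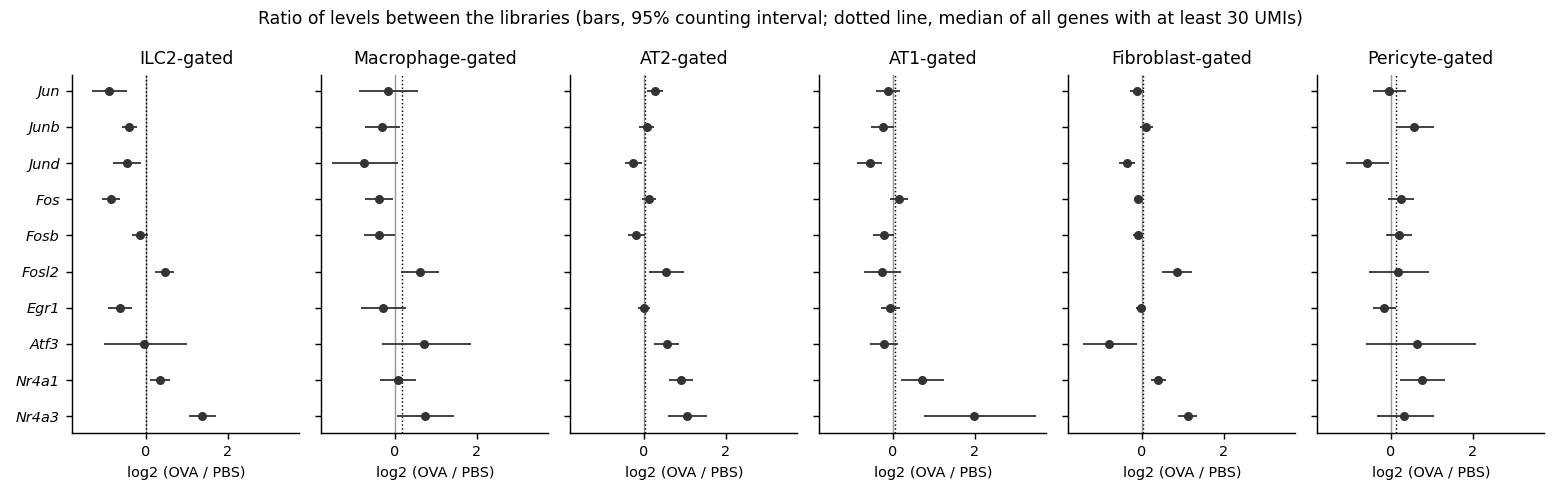
Ratio of OVA to PBS level (x axis, log2) of each gene (rows) in 6 gated types (panels); points are the ratio, bars its 95% counting interval, the solid line equality and the dotted line the median of all genes with at least 30 UMIs. Jun, Fos and Egr1 lie left of equality in ILC2-gated nuclei and close to it in fibroblast-gated nuclei, while Nr4a3 lies right of it in every panel (with a gate of 4 markers its macrophage ratio was -0.08).

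All 10 genes had at least 30 UMIs over both libraries in each of the 6 types, so each was counted. In ILC2-gated nuclei 5 of the 10 had an interval below 0 (9.85% of the 4790 genes with at least 30 UMIs there) and 3 above 0 (12.2%). In AT2-gated nuclei it was 1 below (6.69% of 6551 genes) and 5 above (11.8%). Macrophage-gated nuclei had 2 below (7.27% of 4003 genes) and 2 above (12.3%), and AT1-gated nuclei 1 below (6.82% of 4959) and 2 above (8.87%). Fibroblast-gated nuclei had 2 below (5.99% of 7165) and 3 above (8.30%), and pericyte-gated nuclei 1 below (4.46% of 2040) and 2 above (8.58%). These shares are not on equal counts, because the 10 genes had more UMIs than most: their median was 709 in ILC2-gated nuclei, against 73 over all genes counted.
By size, 1 gene of the 10, Nr4a3, was at least 2-fold higher in OVA in ILC2-gated (4.95% of all genes), AT2-gated (2.17%), AT1-gated (2.80%) and fibroblast-gated nuclei (3.36%). None was in macrophage-gated (5.97%) or pericyte-gated nuclei (8.43%). None was at least 2-fold lower in any type, where the share of all genes was 4.59% in ILC2-gated, 3.77% in macrophage-gated, 2.66% in AT2-gated, 2.52% in AT1-gated, 2.53% in fibroblast-gated and 2.45% in pericyte-gated nuclei. For the 10 genes the median log2 ratio came to -0.27 in ILC2-gated nuclei (all genes 0.01), -0.23 in macrophage-gated (0.18) and 0.21 in AT2-gated nuclei (0.04). At equal depth the macrophage median was 0.34 and the AT2 median -0.07, and with all gene UMIs in the denominator the ILC2 median was -0.04. The median was -0.16 in AT1-gated (0.05), -0.05 in fibroblast-gated (0.04) and 0.22 in pericyte-gated nuclei (0.13). Because the genes were selected on ratios of these libraries, nothing is read from these counts.

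Gene length moved with the ratios. Jun, Junb, Jund, Fos, Fosb and Egr1 have bodies of 1.67 to 7.36 kb and fell in the shortest of 5 equal classes of gene body length, whereas Fosl2, Nr4a1, Nr4a3 and Atf3 have bodies of 20.5 to 47.7 kb. Over all genes the shortest class had a median log2 ratio of -0.14 in ILC2-gated, -0.33 in macrophage-gated, -0.11 in AT2-gated and -0.23 in AT1-gated nuclei. In the class that held Nr4a3 those medians were 0.07, 0.27, 0.08 and 0.09. When each ratio was set against genes of similar body length (10 equal classes), Jun in ILC2-gated nuclei was at -0.67 (-1.10 to -0.23) and Nr4a3 in AT2-gated nuclei at 0.98 (0.52 to 1.45). Fos (-0.62) and Egr1 (-0.42) in ILC2-gated nuclei also kept intervals below 0. Those of Junb (-0.18, -0.365 to 0.004) and Jund (-0.24, -0.578 to 0.105) in ILC2-gated nuclei then included 0. So did that of Jund in AT2-gated nuclei (-0.09, -0.304 to 0.118). In macrophage-gated nuclei the same step turned the ratio of Fos from -0.39 to 0.24 and that of Fosb from -0.38 to 0.25. The part of length, or of the share of spliced and cytoplasmic RNA, in these ratios was not tested.

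**Figure D3:**
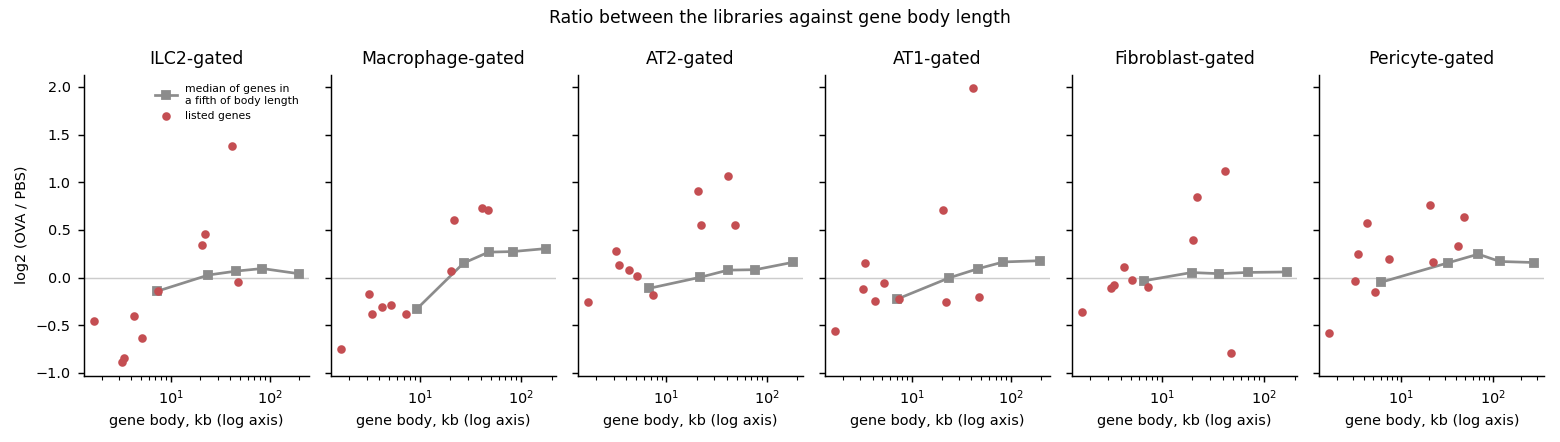
Ratio of OVA to PBS level (y axis, log2) against gene body length (x axis, kb, log axis) in 6 gated types; squares are the median of all genes in each of 5 equal classes of body length and red points the 10 genes. The shortest class lies below the others in every panel, and 6 of the 10 genes fall in that class.

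RNA of other cells and nucleus quality also differed between the libraries in the types with the clearest ratios. Summed over 8 fibroblast markers, ILC2-gated nuclei held 610 CPM in PBS and 288 in OVA, with 1 marker at 0 in each. Summed over 8 AT2 markers they held 826 and 497, with none at 0. For AT2-gated nuclei the fibroblast markers summed to 299 and 215 and the pericyte markers to 253 and 61.6. Other lists were higher in OVA: in ILC2-gated nuclei mast cell or basophil markers summed to 448 and 812 and endothelial markers to 177 and 319, and in AT2-gated nuclei macrophage markers summed to 173 and 266. For pericyte-gated nuclei the AT2 markers summed to 2033 in PBS and 505 in OVA, and the fibroblast markers to 112 and 305. When the fibroblast level scaled by Col3a1 was subtracted in each library, the log2 ratio of Jun in ILC2-gated nuclei was -0.72, and that of Nr4a3 in AT2-gated nuclei was 1.66.
Mitochondrial UMIs were 40.1% (PBS) and 29.7% (OVA) of the total in ILC2-gated and 35.6% and 24.0% in AT2-gated nuclei. Within the PBS library, ILC2-gated nuclei above their median mitochondrial share had less Jun (186 CPM) than those below it (401), and within OVA the levels were 162 and 175. In nuclei with 20 to 40% mitochondrial UMIs only, Jun in ILC2-gated nuclei had a log2 ratio of -1.17 (-1.74 to -0.59) and Nr4a3 in AT2-gated nuclei 1.69 (0.93 to 2.51). A limit of 20% left 35 PBS and 90 OVA AT2-gated nuclei. Under that limit Jun in ILC2-gated nuclei, from 11 PBS and 85 OVA nuclei, was at -1.16 with an interval that included 0 (-2.32 to 0.17). The part of other cells' RNA and of mitochondrial share in these ratios was not tested.

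Nuclei carried the genes in different numbers. With every nucleus randomly reduced to 500 nuclear-gene UMIs, fibroblast-gated nuclei had a UMI of 3.08 of the 10 genes on average in PBS and 3.45 in OVA, and pericyte-gated nuclei 3.08 and 3.09. ILC2-gated nuclei had 2.54 and 2.43, AT2-gated nuclei 1.96 and 1.94, AT1-gated nuclei 1.63 and 1.64 and macrophage-gated nuclei 1.21 and 1.29. At least 5 of the 10 genes were found in 54 of 247 PBS (21.9%) and 166 of 635 OVA (26.1%) fibroblast-gated nuclei. In macrophage-gated nuclei this was 1 of 129 (0.775%) and 2 of 268 (0.746%). The spread over types within a library was wider than the gap between the libraries in any type.

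**Figure D4:**
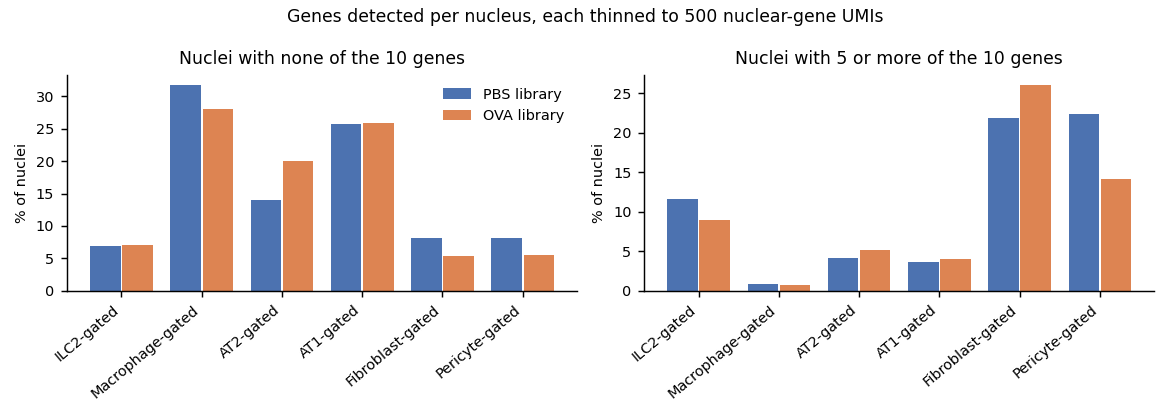
Share of nuclei (y axis, %) with a UMI of none (left) and of 5 or more (right) of the 10 genes, by gated type (x axis) and library, at a common depth of 500 nuclear-gene UMIs per nucleus. Fibroblast- and pericyte-gated nuclei have the tallest bars on the right and macrophage-gated nuclei the tallest on the left, in both libraries.

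At that common depth Jun had a UMI in 25 of 190 PBS (13.2%, exact 95% interval 8.70 to 18.8) and 23 of 455 OVA (5.05%, 3.23 to 7.49) ILC2-gated nuclei. Without thinning the shares were 18.2% and 12.9%. Fos was found in 39.5% and 25.7% of thinned ILC2-gated nuclei and Egr1 in 23.7% and 12.7%. Nr4a3 went from 14.2% (27 of 190) to 28.8% (131 of 455), and from 17.6% to 46.0% without thinning. In AT2-gated nuclei Nr4a3 was found in 10 of 385 PBS (2.60%) and 22 of 293 OVA (7.51%) thinned nuclei.
No gated type is known to lack these genes, and for Nr4a3 the lowest share was that of AT1-gated nuclei, at 1.43% and 3.64%, so its AT2 share in PBS lay near this floor. Thinning left out 128 PBS and 58 OVA ILC2-gated nuclei and 72 and 24 AT2-gated nuclei as too shallow.

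Detection of Fos and of other listed genes in the same nucleus was compared at that depth. Among thinned fibroblast-gated nuclei of the PBS library, Egr1 was found in 86 of 141 nuclei with Fos (61.0%) and in 41 of 106 without (38.7%). Jun was found in 35.5% of those with Fos and 18.9% of those without, and in the OVA library in 35.7% and 20.0%. In ILC2-gated nuclei of the OVA library Jun was in 4.27% of nuclei with Fos and 5.33% of those without, while Egr1 was in 20.5% and 10.1%. In the PBS library Egr1 went the other way in ILC2-gated nuclei, at 18.7% (14 of 75) with Fos and 27.0% (31 of 115) without. Nr4a3 in ILC2-gated nuclei of the OVA library was found in 31.0% of nuclei with Nr4a1 and 27.7% of those without. In the PBS library these shares were 12.5% (6 of 48) and 14.8% (21 of 142).
Nuclei of 1 library are not replicates, so these shares carry no test.

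Promoter accessibility was a second readout of the same gated nuclei and libraries. It was counted as transposition events in peaks within 1 kb of each start. Values are per 1000000 events (also written CPM) in peaks that both libraries share. Every promoter had events in every type, and for each gene the span of accessibility over types was smaller than that of RNA. For Egr1 it was highest in pericyte-gated nuclei (279 PBS and 240 OVA CPM) and lowest in ILC2-gated (133, PBS) or macrophage-gated nuclei (127, OVA), a span of 2.10-fold and 1.89-fold. For Atf3 ILC2-gated nuclei were lowest in both libraries, at 70.8 and 73.1, and the highest were pericyte-gated (149, PBS) and AT1-gated nuclei (159, OVA). For Fosl2 AT2-gated nuclei were lowest in both, at 77.5 and 89.7, as for its RNA. For Nr4a3, with the widest span of RNA, the span of accessibility was 1.39-fold in PBS and 2.11-fold in OVA.
Over the 12 pairs of type and library the Pearson r of log2 RNA and log2 accessibility was 0.77 for Atf3, 0.73 for Jund, 0.67 for Egr1, 0.64 for Jun and 0.34 for Nr4a3. It was -0.07 for Junb and -0.15 for Nr4a1. The 12 points come from 2 libraries and share their depth, so these values are descriptions.

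Between the libraries, Jun accessibility in ILC2-gated nuclei was 162 CPM in PBS (455 events) and 143 in OVA (621 events), a log2 ratio of -0.18 (-0.36 to -0.003). It was -0.004 (-0.23 to 0.22) among nuclei that passed a joint filter on both readouts, and its interval included 0 with all accessibility counts in the denominator (-0.15, -0.33 to 0.02) and with a gate of 2 markers (-0.15, -0.32 to 0.01). In AT2-gated nuclei it was 133 and 151, a ratio of 0.18 (0.01 to 0.34). The Jun peaks summed to 1671 bp in PBS and 1755 bp in OVA, and per kb of peak these ratios were -0.25 and 0.10. For Fos in ILC2-gated nuclei accessibility was equal at 83.2 CPM in both libraries, beside an RNA ratio of -0.84.
Nr4a3 accessibility in ILC2-gated nuclei was 55.5 and 71.5, a ratio of 0.37 (0.08 to 0.65), on the same side as its RNA. In AT2-gated nuclei it was 65.6 and 66.2 (0.01, -0.24 to 0.26), beside an RNA ratio of 1.06. In macrophage-gated nuclei it was 58.3 and 37.7 (-0.63, -1.06 to -0.19), on the side opposite to its RNA. For Nr4a1 the ratio was -0.33 (-0.55 to -0.10) in ILC2-gated and -0.35 (-0.59 to -0.13) in AT2-gated nuclei, also opposite to its RNA.

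**Figure D5:**
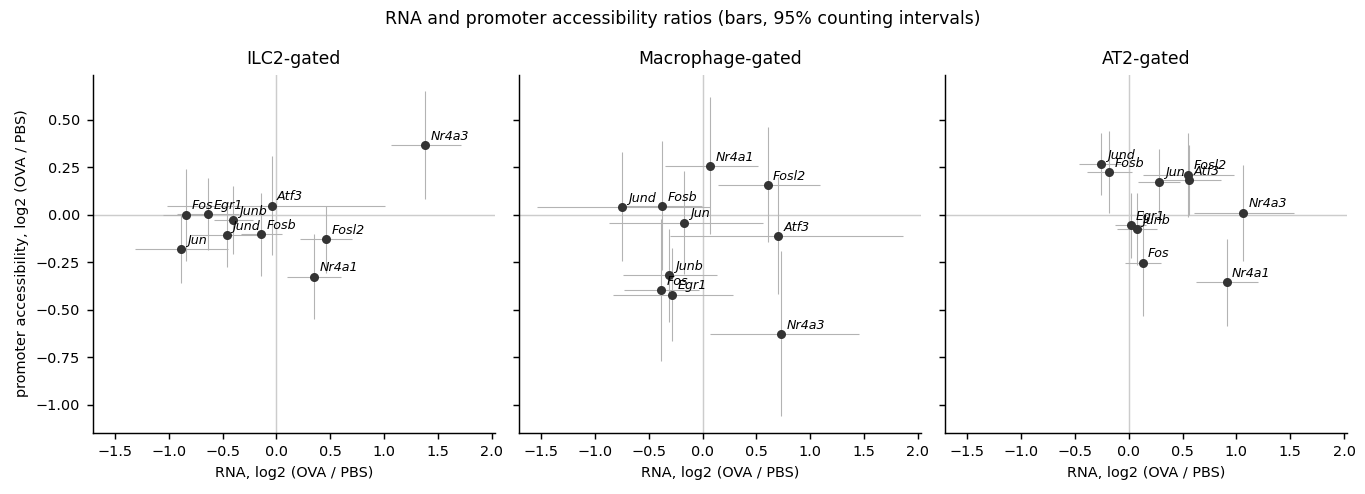
Ratio of promoter accessibility (y axis, log2 OVA over PBS) against ratio of RNA (x axis, log2 OVA over PBS) for the 10 genes in ILC2-, macrophage- and AT2-gated nuclei; bars are 95% counting intervals. Jun and Nr4a3 lie at opposite corners in ILC2-gated nuclei, and Nr4a1 lies to the right of and below the origin in AT2-gated nuclei.

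Genes of the same response, listed apart from the 10, were read the same way, beside the shares of all genes with an interval above or below 0. Of 22 other immediate early genes, 16 had at least 30 UMIs in ILC2-gated nuclei, and 4 had an interval below 0 (all genes 9.85%) and 1 above (all genes 12.2%), with a median log2 ratio of 0.17 (all genes 0.01). Nr4a2, the remaining Nr4a receptor, went from 692 to 1623 CPM in ILC2-gated nuclei (log2 ratio 1.23, 1.00 to 1.47). Egr3 was next in that list at 1.07 (-0.21 to 2.62), on 6 PBS and 32 OVA UMIs. Klf2, a factor of quiescent lymphocytes, was lowest at -1.53 (-2.43 to -0.64) on 25 and 22 UMIs, and it was also lowest in AT2-gated nuclei at -0.87 (-1.61 to -0.14).
In AT2-gated nuclei 3 of 16 other immediate early genes were above 0 (all genes 11.8%) and 1 below (6.69%), with a median of 0.39 (all genes 0.04). Ccn1, a matrix protein gene and target of YAP and serum response factor, went from 204 to 424 CPM (1.06, 0.76 to 1.36). In macrophage-gated nuclei 1 of 14 was above (all genes 12.3%) and 1 below (7.27%), with a median of -0.02 (all genes 0.18), and Rhob, a small GTPase, was at -1.27 (-2.30 to -0.24).

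MAP kinase phosphatases, which switch the response off, and other listed feedback genes had 3 of 9 counted genes above 0 (all genes 12.2%) and 2 below (9.85%) in ILC2-gated nuclei, with a median of 0.30 (all genes 0.01). Gadd45b was highest there at 1.30 (0.44 to 2.26), on 13 and 81 UMIs, and Tob1, an antiproliferative gene, was lowest at -0.69 (-1.23 to -0.15). In AT2-gated nuclei 3 of 10 were above (11.8%) and none below (6.69%), with a median of 0.33 (all genes 0.04). Dusp6, which dephosphorylates ERK, was at 1.02 (0.21 to 1.88) and Spry1, an inhibitor of growth factor signalling, at 0.88 (0.29 to 1.50). In macrophage-gated nuclei 1 of 4 was above (12.3%) and none below (7.27%), with a median of 0.09 (all genes 0.18).
Upstream factors and kinases had 2 of 15 above (all genes 12.2%) and 1 below (9.85%) in ILC2-gated nuclei, with a median of 0.18 (all genes 0.01), where Mef2c was at -1.26 (-2.30 to -0.22). In macrophage-gated nuclei 6 of 14 were above (12.3%) and none below (7.27%), with a median of 0.43 (all genes 0.18). The highest were Crem, a cyclic AMP responsive factor, at 1.59 (0.46 to 2.97) and Elk3, a partner of serum response factor, at 1.34 (0.19 to 2.73). In AT2-gated nuclei 1 of 17 was above (11.8%) and none below (6.69%), with a median of 0.20 (all genes 0.04), and Mef2c and Map2k7, at -0.72 and -0.62, had intervals that included 0.

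Other AP-1 and ATF partners had 3 of 10 above 0 in ILC2-gated (all genes 12.2%), 0 of 10 in macrophage-gated (12.3%) and 4 of 12 in AT2-gated nuclei (11.8%), and none below in these types. Their medians were -0.16, 0.24 and 0.29, beside 0.01, 0.18 and 0.04 over all genes. Heat shock genes, which answer protein stress, had 1 of 7 above (12.2%) and 3 below (9.85%) in ILC2-gated nuclei, with a median of -0.29 (all genes 0.01). In macrophage-gated nuclei 1 of 6 was above (12.3%) and 3 below (7.27%), with a median of -0.51 (all genes 0.18). There Dnaja1 was at 1.30 (0.06 to 2.83), Hspd1 at -1.70 (-2.52 to -0.88) and Hsp90ab1 at -1.12 (-1.50 to -0.74). In AT2-gated nuclei none of 8 was above (11.8%) and 1 below (6.69%), with a median of 0.01 (all genes 0.04). In fibroblast-gated nuclei 6 of 12 were above (8.30%) and none below (5.99%), with a median of 0.38 (all genes 0.04).

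The levels of other genes that tracked Jun and Nr4a3 over types were ranked by Pearson r of log2 (level + 10) over the 12 pairs of type and library, among 2689 nuclear genes with at least 500 UMIs. Nearest to Jun were Prickle2 (0.987), Egr1 (0.985), Nfia (0.981), Socs3 (0.976) and Ptk7 (0.965). Nearest to Nr4a3 were Nr4a1 (0.971), Homer1 (0.948), Nr4a2 (0.946), Sf3b1 (0.941) and Clk1 (0.928). Homer1 is itself an activity-induced gene in neurons, and Sf3b1 and Clk1 encode a splicing factor and a kinase of splicing factors. Within the 10 genes Jun and Egr1 formed the closest pair, followed by Nr4a1 and Nr4a3, whereas Atf3 and Nr4a3 ran in opposite directions (-0.79). These values rest on 12 points from 2 libraries and describe a shared order of types.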

How the data were processed

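Nuclei were counted in 1 PBS and 1 OVA library. The authors deposited raw counts from Cell Ranger ARC 2.0.1 (mm10): whole-number UMI counts of 32285 gene features and transposition counts in peaks, called separately per library, without normalization. The counter's strand and intron settings are not given in the sources used here. Total gene UMIs were 11473351 (PBS) and 13774959 (OVA), and transposition counts 66520943 and 51197323.

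The study's filter (200 genes or more, 60% mitochondrial UMIs or less) was applied, and nuclei were gated by fixed markers (at least 3 of 8, lead 2). No doublet caller was run: nuclei with 3 markers of more than 1 type (379 PBS, 470 OVA) stay ungated unless 1 type leads by 2, and same-type doublets remain. UMIs were summed per type and library and divided by UMIs outside the 13 mitochondrial genes. Levels carry exact Poisson, ratios exact conditional binomial and shares exact Clopper-Pearson 95% intervals, for counting error only. No test between PBS and OVA could be made from single libraries. For differences between types of 2 ratios, and for medians (from the middle genes), counting errors were added in quadrature.

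The 10 genes, the marker and gene lists and the tests were chosen with earlier results of these data known. Named genes were the 10 in each type, the 3 highest and 3 lowest ratios of the 5 other lists (at least 30 UMIs) in ILC2-, macrophage- and AT2-gated nuclei, and the 5 genes most like Jun and Nr4a3. Of the listed symbols 4 matched no feature. Gene bodies came from GENCODE M21 (32235 of 32285 features matched) and promoters from RefSeq on GRCm38 (9 of 10 genes). Intervals held known ratios in simulated sums drawn as independent Poisson counts, an outcome built into such a draw. The simulation did not cover UMIs that cluster in single nuclei. Python 3.11.15, numpy 2.4.6, scipy 1.17.1, pandas 2.3.3 and matplotlib 3.10.9 were used. Alternatives changed the denominator, scaling, thinning, nucleus filter and gate, and 3 of them and the words TGACATCA and TGACGT were added after seeing the data.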

Additional observations from a re-analysis of the deposited data

Results flagged for a closer look

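Each of 3 genes had library ratios on opposite sides of equality in a pair of cell types, with counting intervals that excluded 0 in both. For Jun the log2 ratio was 1.17 higher in AT2-gated than in ILC2-gated nuclei, but at equal depth the AT2 ratio was -0.17, on the same side as ILC2. For Junb it was 0.98 higher in pericyte-gated (52 PBS UMIs, AT2 markers at 2033 PBS and 505 OVA CPM) than in ILC2-gated nuclei. For Atf3 it was 1.35 higher in AT2-gated than in fibroblast-gated nuclei, on 30 PBS UMIs in fibroblast-gated nuclei. With 1 library per group these differences were not tested.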

How the results depend on the processing

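No paired analysis was possible because PBS and OVA are single libraries. Ratios cover counting error only. Atf3 in ILC2-, macrophage- and pericyte-gated and Nr4a3 in AT1-gated nuclei rested on under 60 UMIs. Of 106 alternative values of the main results, 11 had the opposite sign, 1 of them (the AT2 median) where the reported interval excluded 0 and 10 where it included 0. Of 63 that had an interval and whose reported interval excluded 0, 14 had an interval that included 0. The Jun difference between ILC2- and AT2-gated nuclei was among these at equal depth (-0.78). Jun in ILC2-gated nuclei stayed below 0 in all 13 alternatives (-1.18 to -0.65), with an interval that included 0 at most 20% mitochondrial UMIs. Limiting mitochondrial UMIs to 20% moved Nr4a3 in AT2-gated nuclei to 0.10, the Jun difference between ILC2- and AT2-gated nuclei to -1.83, the Nr4a3 difference between AT2- and ILC2-gated nuclei to -1.86, the AT2 median to 0.50, Jun accessibility in ILC2-gated nuclei to -0.60 and Nr4a3 accessibility in AT2-gated nuclei to 0.30. It also turned Junb (0.20) and Nr4a1 (-0.12) in ILC2-gated, Fos (1.01) and Fosb (1.18) in macrophage-gated (2 PBS nuclei) and Jund (0.24) in AT2-gated nuclei. Thinning turned the AT2 median to -0.07 and Jun in AT2-gated nuclei to -0.17, and moved the macrophage median to 0.34. With all gene UMIs in the denominator the ILC2 median was -0.04 and the AT2 median 0.45, and as a mean over nuclei the AT2 median was 0.016. A gate of 4 markers turned Nr4a3 in macrophage-gated nuclei to -0.084. The cause was not tested.

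There were 3 alternatives chosen after seeing the data. Centring on genes of similar length gave medians of -0.14 (ILC2), 0.33 (macrophage) and 0.37 (AT2) and turned Fos (0.24) and Fosb (0.25) in macrophage-gated nuclei. Nuclei with 20 to 40% mitochondrial UMIs gave 1.69 for Nr4a3 in AT2-gated nuclei, 0.39 for its difference from ILC2-gated nuclei and 0.036 for the AT2 median. Subtracting the fibroblast share gave 1.66 for Nr4a3 in AT2-gated nuclei and medians of -0.05 (ILC2) and 0.43 (AT2). Of 361 values of the other single genes, 49 had the opposite sign: 9 where the reported interval excluded 0, all given above, and 40 where it included 0. Of 175 with an interval whose reported interval excluded 0, 49 had one that included 0.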

Other observations

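Types with too few nuclei for the comparisons held the genes as follows. Myofibroblast or smooth muscle-gated nuclei (45 PBS and 85 OVA) held Egr1 at 2022 and 1905, Fos at 1929 and 1766 and Jun at 1049 and 915 CPM, within or above the range of the other stromal types. Their Nr4a3 was at 187 (10 UMIs) in PBS and 417 (72 UMIs) in OVA. Ciliated-gated nuclei of the PBS library (20) held Atf3 at 631 CPM (30 UMIs, exact Poisson interval 426 to 901). In that library AT1-gated nuclei held 387 and AT2-gated nuclei 228. No level was computed for the 15 ciliated-gated OVA nuclei.

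Mast cell or basophil-gated nuclei (26 and 47) had 2 Nr4a3 UMIs in PBS (131 CPM, exact Poisson interval 15.8 to 473) and 31 in OVA (561, 381 to 797). Their Fos was at 1177 (698 to 1861) and 561 (381 to 797). Monocyte-gated nuclei (25 and 84) held Nr4a3 at 329 (151 to 625) and 599 (468 to 754) and Fosl2 at 585 and 607.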
